A study of Homo sapiens with 12 samples.

Results

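The ARID3 genes are 3 of the 41878 gene rows deposited for this series, namely ARID3A, ARID3B and ARID3C, taken by symbol in all 12 libraries. ARID3A was picked because its 6 TRPML3 libraries lie under all vector libraries, so its difference between plasmids is given as a description with no test. ARID3B and ARID3C were taken with it as the other members of the family. Polyadenylated RNA was sequenced from HEK293T, a human embryonic kidney line that carries the SV40 large T antigen, which binds RB. Per the labels' protocols, cells were transfected with 1 µg of control vector or of a plasmid for TRPML3, the endolysosomal cation channel encoded by MCOLN3. They were then kept in 10% serum (fed) or in 0% serum for 4 h (starved). The 4 groups are vector fed, vector starved, TRPML3 fed and TRPML3 starved, with 3 libraries each that the labels call biological triplicates. All groups share the cell line, the transfection reagent and the amount of plasmid, and the labels name no selection of transfected cells.

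ARID3 proteins are transcription factors with an AT-rich interaction domain, extended in this family, through which they bind AT-rich DNA. ARID3A, also called Bright, DRIL1 or E2FBP1, is best known as an activator of immunoglobulin heavy chain transcription in B cells, and it has been tied to E2F1 and to silencing of pluripotency genes. ARID3B is a paralog with roles in embryonic development and a known target of let-7 microRNAs, and ARID3C is a closely related coactivator.

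In GENCODE release 29, on GRCh38, ARID3A (ENSG00000116017) lies on the plus strand of chromosome 19 from 925781 to 975934. It has 7 transcripts of up to 9 exons and 7.21 kb of merged exon sequence. ARID3B (ENSG00000179361) lies on the plus strand of chromosome 15 from 74541177 to 74598131, with 6 transcripts and 6.21 kb of exon. ARID3C (ENSG00000205143) lies on the minus strand of chromosome 9 from 34621379 to 34628107, with 1 transcript and 1.41 kb. No stretch of 31 bases is shared between the annotated transcripts of the 3 genes, so such stretches do not mix their reads. ARID3B does share sequence with ARID3BP1, a processed pseudogene on chromosome 1, in which 68.6% of the 31-base words also occur in ARID3B transcripts. How reads common to both were assigned is not given in the sources used here. ARID3A spans an antisense and a sense-intronic gene of the annotation, and the use of strand in counting is likewise not given.

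Total counts ran from 33101540 to 43700547 per library. Levels are given as CPM, counts scaled to library size after edgeR's TMM correction for library composition, and 3 counts, taken as the detection floor, equal at most 0.0978 CPM. MCOLN3 had 9.30 to 18.4 CPM in the 6 vector libraries and 4926 to 58195 CPM in the 6 TRPML3 libraries, in the direction of the labels in every library. The share of counts from mitochondrial genes followed the replicate number, with 2.81 to 4.40% in replicates 1, 1.05 to 2.52% in replicates 2 and 4.83 to 5.70% in replicates 3, and its ranges in the 4 groups overlapped. Of 10 embryonic kidney markers, KRT8, KRT18 and SIX2 had means over the 12 libraries of 92.7, 36.7 and 22.6 CPM, while PAX8 had at most 5 counts in any library. B cell markers were near the floor, with 0 counts of MS4A1 in every library, at most 4 of CD79B and a summed level of 2.01 to 4.97 CPM over the list of 7 genes. Fibroblast and neuronal markers summed to 22.4 to 47.0 CPM and to 194 to 305 CPM over their lists of 7 and 8 genes, with overlapping ranges in all 4 groups. In edgeR's test no marker of the 4 lists was called in any contrast, and 2 markers had an unadjusted p under 0.05. These were LHX1, a kidney marker, for average starvation (-1.19 ± 0.48 on the log2 scale, against 9.45% of all genes under that p), and PDGFRB, a fibroblast marker. PDGFRB met it for average TRPML3 (2.62% of all genes), TRPML3 in starved cells (2.20%) and the interaction (2.07%), at no more than 0.405 CPM in any library and 0 counts in all 3 TRPML3 starved libraries.

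ARID3A was counted at a moderate level in every vector library and close to the floor in most TRPML3 libraries. In vector fed replicates 1, 2 and 3 it had 268, 877 and 546 counts, or 7.35, 20.03 and 15.7 CPM. In vector starved replicates 1, 2 and 3 it had 856, 621 and 858 counts, or 21.0, 16.6 and 19.3 CPM. In TRPML3 fed replicates 1, 2 and 3 it had 5, 3 and 43 counts, or 0.12, 0.078 and 1.40 CPM. In TRPML3 starved replicates 1, 2 and 3 it had 9, 4 and 10 counts, or 0.263, 0.12 and 0.289 CPM. The groups do not overlap by plasmid, and TRPML3 fed replicate 3 stands above the other 5 TRPML3 libraries. The lowest vector library, fed replicate 1, lay 5.25-fold above that highest TRPML3 library. Exact Poisson 95% intervals cover counting error only and take the deposited whole numbers as direct read counts, which the sources used here do not state. They run from 31.1 to 57.9 for its 43 counts and from 0.619 to 8.77 for the 3 counts of TRPML3 fed replicate 2.

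Summed over libraries, ARID3A had 4026 counts with vector and 74 with TRPML3. Its mean was 16.6 ± 4.99 CPM (SD, n = 6) in vector and 0.379 ± 0.508 CPM (SD, n = 6) in TRPML3 libraries, a 44.0-fold difference of means. The fitted log2 difference was -4.77 in fed and -6.38 in starved cells, and -5.58 averaged over both serum states. Without TRPML3 fed replicate 3 the fed value was -7.12 and the average -6.75, so the difference was larger with this library left out. In fed cells, summed B cell markers ran from 2.69 to 3.79 CPM with vector and from 2.13 to 2.48 CPM with TRPML3, and summed kidney markers from 212 to 244 and from 262 to 270 CPM. How often other genes or lists lie apart by plasmid over so few fed libraries is not reported here, so these gaps are given with no share to set them against. The B cell sums are near the floor, with 0 counts of MS4A1 and CD79B in every fed library. CD22 had at most 9 counts in any library. For TRPML3 in fed cells, 0 of 4 B cell and 0 of 9 kidney markers tested had an unadjusted p under 0.05 (edgeR). In starved cells both lists overlapped between plasmids, and the part of these markers in the ARID3A difference was not tested. These are bulk libraries, in which fewer cells of a kind and less RNA per cell cannot be told apart.

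**Figure D1:**
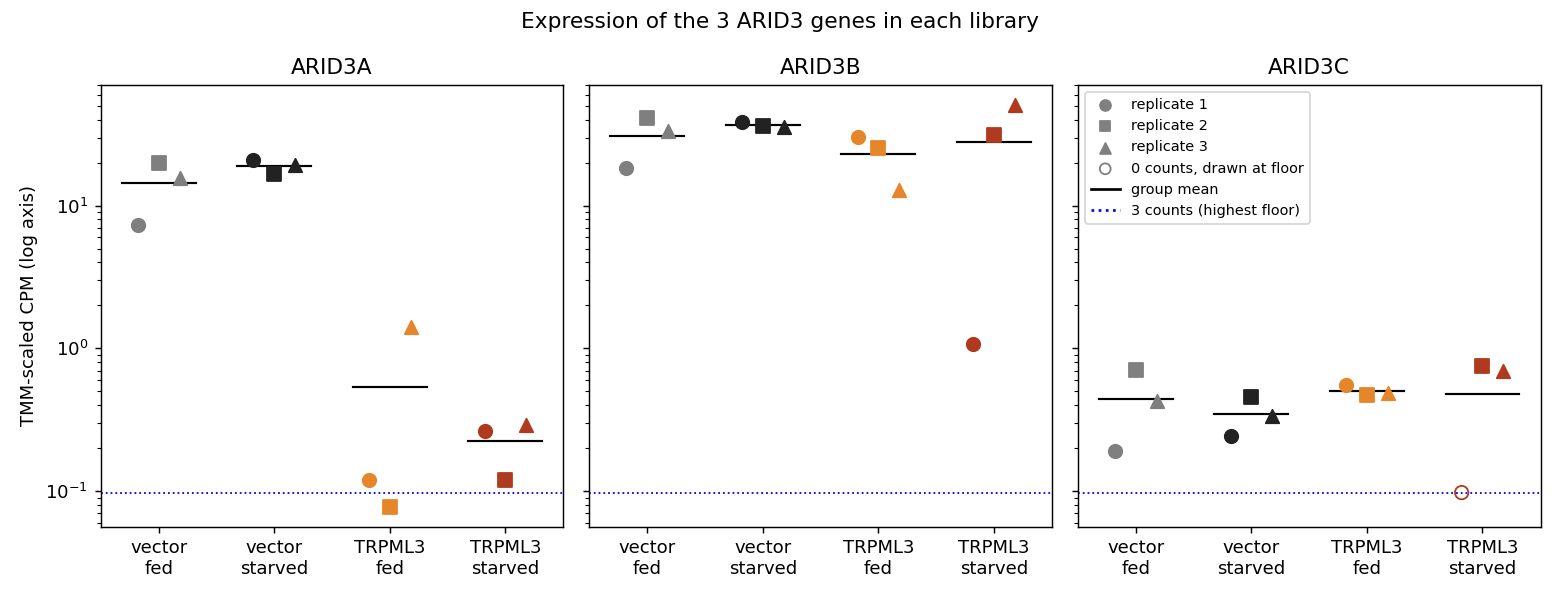
TMM-scaled CPM on a log axis for ARID3A, ARID3B and ARID3C, with 1 point per library by group, the replicate number as the marker and the group mean as a bar. ARID3A lies at 7.35 CPM or more in vector and at 1.40 CPM or less in TRPML3 libraries, while the ranges of ARID3B and ARID3C overlap between plasmids, with TRPML3 libraries both under and over all vector libraries.

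Of 18030 genes tested, 17 had all 6 TRPML3 libraries under all 6 vector libraries, or 0.0943%, and the choice of ARID3A used this property. The next widest gap, for RN7SL381P, was 1.12-fold at 0.217 CPM on average, against 5.25-fold for ARID3A. Among the 9 of these genes with a mean of at least 5 CPM, the widest gaps after ARID3A were those of TMEM62, ZNG1F, TMUB2 and LAMTOR4. TMEM62 had 9.54 to 16.9 CPM in vector and 3.15 to 8.67 CPM in TRPML3 libraries. LAMTOR4, a subunit of the Ragulator complex that anchors mTORC1 to the lysosome, had 19.6 to 27.0 and 11.3 to 18.5 CPM. In these 4 genes the ranges of the plasmids lie next to each other, whereas in ARID3A they are set apart.

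**Figure D2:**
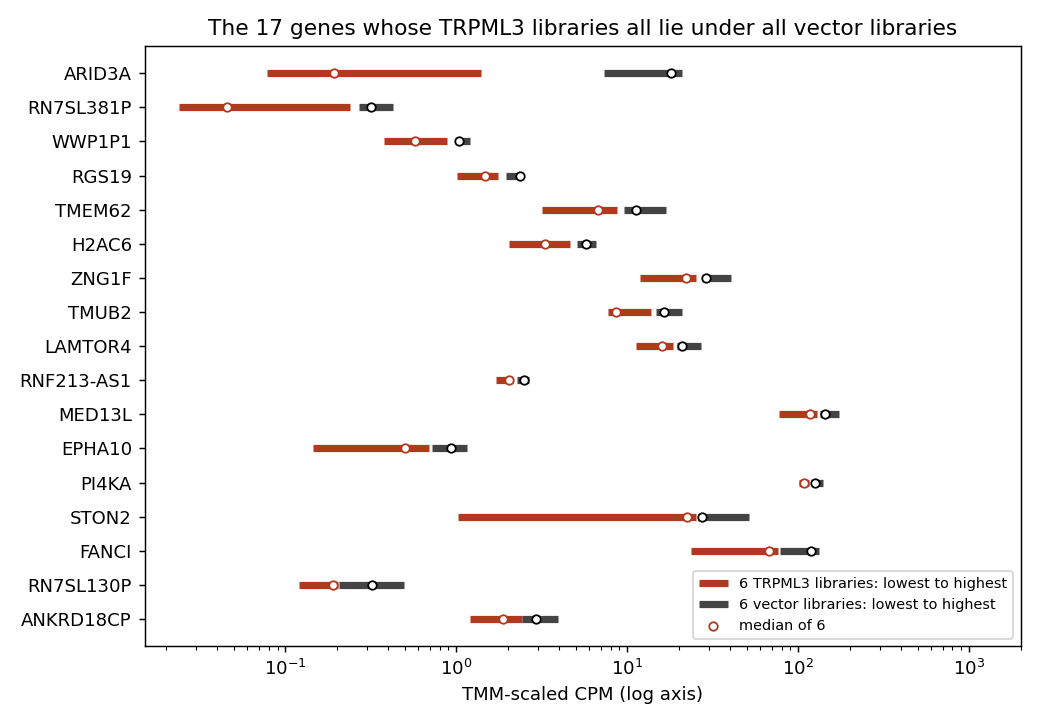
Range of TMM-scaled CPM (log axis) over 6 TRPML3 and 6 vector libraries, with the median as a white point, for the 17 genes whose ranges do not overlap with TRPML3 lower, from widest gap at the top. ARID3A shows a 5.25-fold gap, and the next gap is 1.12-fold.

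A second description, chosen after the values were seen, concerns how often a gene is nearly missing from some libraries. A library was called low for a gene when it was more than 10-fold under the level of the third-highest library, among 11400 genes whose third-highest library had at least 5 CPM. In 11.3% of these genes at least 1 library was low. There were 712 genes with 1 low library, ARID3B among them, and 33 genes with 6 low libraries. Of these 33, the low libraries were the 6 TRPML3 libraries in 1 gene, ARID3A, and the 6 vector libraries in 1 gene, MCOLN3. ARID3A was chosen for its low TRPML3 libraries and MCOLN3 is the transfected gene, so neither place is independent of the choice or the design. Low libraries were spread over all samples, from 170 genes in vector starved replicate 2 to 282 in TRPML3 starved replicate 2. Such near-absent values therefore occur in many genes of this table, and their part in the ARID3A difference was not tested.

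The expressed genes on either side of ARID3A, in RefSeq's order on chromosome 19, did not share its pattern. R3HDM4, the nearest one before it, had 17.2 to 30.8 CPM in vector and 12.3 to 29.01 CPM in TRPML3 libraries, with a log2 difference of 0.011 ± 0.22 (SE) averaged over serum states. WDR18, which encodes a protein of ribosome biogenesis and is the nearest one after it, had 7.01 to 16.2 and 7.42 to 11.4 CPM, with -0.18 ± 0.23. MED16, a Mediator subunit, CFD, TMEM259 and CNN2 had values of -0.20 ± 0.23, -0.46 ± 0.24, -0.30 ± 0.21 and 0.13 ± 0.18. For all 6 the adjusted p was 1.00 (edgeR, quasi-likelihood), and 2 of 18030 genes or 0.0111% passed in this contrast.

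**Figure D3:**
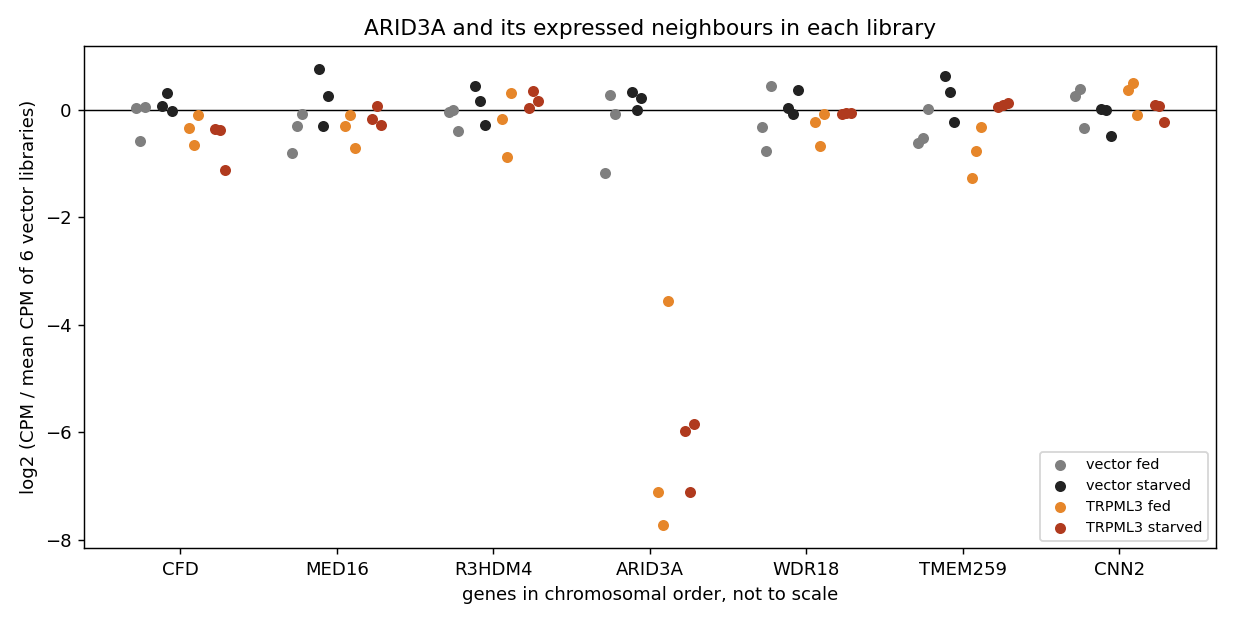
log2 of CPM over the mean of the 6 vector libraries for ARID3A and the 3 expressed genes on either side, in chromosomal order, with 1 point per library. The TRPML3 libraries lie far below 0 at ARID3A alone, and at the 6 neighbours both plasmids overlap.

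The difference of ARID3A with serum withdrawal in vector cells did not exceed the spread between replicates. Each starvation comparison reuses the fed or starved libraries of the plasmid comparisons, so their values are set side by side only. In vector cells it had 14.3 ± 6.44 CPM (SD, n = 3) fed and 18.95 ± 2.20 CPM starved, a log2 difference of 0.40 ± 0.81 (SE, edgeR adjusted p = 1.00). That SE rests on 1 estimate of spread shared by all 12 libraries, the near-floor TRPML3 ones among them. Fitted on the vector libraries alone, the difference was 0.41 ± 0.40 (SE, edgeR adjusted p = 0.999). In the shared fit the value was 0.088 without vector fed replicate 1 and 0.72 without vector fed replicate 2. In TRPML3 cells it had 0.533 ± 0.752 CPM fed and 0.224 ± 0.0912 CPM starved. Of those 6 libraries 5 hold 3 to 10 counts, and ARID3A passed the filter on low counts only through the vector libraries, so no test is read from them. The fitted log2 values that rest on them were -1.21 for starvation in TRPML3 cells, -1.61 as the interaction, which compares the response to starvation between plasmids, and -0.40 for starvation averaged over plasmids. Without TRPML3 fed replicate 3 they were 1.15, 0.74 and 0.77, so their direction rests on 1 library.

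ARID3B was counted well above the floor in every library, and its levels overlapped between plasmids. In vector fed replicates 1, 2 and 3 it had 671, 1788 and 1155 counts, or 18.4, 40.8 and 33.1 CPM. In vector starved replicates it had 1562, 1360 and 1569 counts, or 38.2, 36.3 and 35.3 CPM. In TRPML3 fed replicates it had 1264, 975 and 393 counts, or 30.3, 25.4 and 12.8 CPM. In TRPML3 starved replicates it had 37, 1049 and 1751 counts, or 1.08, 31.4 and 50.7 CPM. Replicate 1 of the last group is thus the lowest of all 12 libraries and replicate 3 of the same group the highest, with a ratio of 46.9. The groups overlap in both serum states, and 2 of 6 TRPML3 libraries lay under all vector libraries.

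By edgeR's quasi-likelihood test, ARID3B differed between plasmids by -0.43 ± 0.88 (log2, SE, adjusted p = 1) in fed cells and by -0.40 ± 0.88 (adjusted p = 1) in starved cells. The average was -0.42 ± 0.62 (adjusted p = 1.00). With TRPML3 starved replicate 1 left out, the value in starved cells turned to 0.16 and the average was -0.13, whereas without TRPML3 starved replicate 3 the average was -0.80. The fed value was -0.14 without TRPML3 fed replicate 3 and -0.69 without vector fed replicate 1. Starvation gave a log2 difference of 0.25 ± 0.87 in vector cells (edgeR adjusted p = 1.00) and of 0.28 ± 0.88 in TRPML3 cells (edgeR adjusted p = 0.997). Without TRPML3 starved replicate 1 the latter was 0.84, and without TRPML3 fed replicate 3 it was -0.0096. Its average over plasmids was 0.26 ± 0.62 (edgeR adjusted p = 0.943), and the interaction was 0.028 ± 1.24 (adjusted p = 1.00).

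The related pseudogene row, ARID3BP1, was also lowest in the library where ARID3B was low, but by far less. It had 60 counts in TRPML3 starved replicate 1 and 71 to 148 in the other 11 libraries. Its level was 2.40 ± 0.518 CPM (SD, n = 6) in vector and 2.75 ± 0.880 CPM (SD, n = 6) in TRPML3 libraries, with a log2 difference of 0.20 ± 0.24 (SE, edgeR adjusted p = 1.00). The 60 counts of the pseudogene exceeded the 37 counts of ARID3B itself in that library, and in the others ARID3B had the higher count.

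ARID3C was at the edge of detection. Vector fed replicates 1, 2 and 3 held 7, 31 and 15 counts of it. Vector starved replicates held 10, 17 and 15 counts. With TRPML3 the fed replicates held 23, 18 and 15 counts and the starved ones 0, 25 and 24. The 0 counts of TRPML3 starved replicate 1, the same library in which ARID3B was low, allow a level of up to 0.0876 CPM by the floor of 3 counts and 0.108 CPM by the exact Poisson 95% limit. Means were 0.394 ± 0.184 CPM (SD, n = 6) in vector and 0.492 ± 0.266 CPM (SD, n = 6) in TRPML3 libraries. The groups overlap, and the average log2 difference between plasmids was 0.33 ± 0.70 (SE, edgeR adjusted p = 1.00). Starvation gave -0.36 ± 1.00 in vector cells (edgeR adjusted p = 1.00) and -0.066 ± 0.99 in TRPML3 cells (adjusted p = 0.999). Without TRPML3 starved replicate 1 the average plasmid difference was 0.62 and the starvation value in TRPML3 cells 0.51, with adjusted p of 1.00 and 0.968 in edgeR. Without TRPML3 starved replicate 2 they were 0.093 and -0.53.

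No member passed an adjusted p of 0.05 in the tests read here. That is 0 of 3 for starvation in vector cells, where 0.00555% of all genes passed. For ARID3B and ARID3C it is 0 of 2 for starvation in TRPML3 cells, for average starvation and for the interaction, where 0% passed in edgeR. It is also 0 of 2 for TRPML3 in fed cells (0.0111% of all genes), in starved cells (0.00555%) and on average (0.0111%). None of these tests had an unadjusted p under 0.05 either. That was met by 4.44% of all genes for starvation in vector cells, 5.71% in TRPML3 cells, 9.45% on average and 2.07% for the interaction. For TRPML3 it was met by 2.21% in fed cells, 2.20% in starved cells and 2.62% on average. The DESeq2 Wald test called no member in these tests, against 0.198%, 0.360%, 1.26% and 0.124% of its genes for starvation in vector cells, in TRPML3 cells, on average and in interaction, and 0.144%, 0.160% and 0.146% for TRPML3 fed, starved and average.

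Compared per kb of exon, the order of the levels in vector cells was ARID3B, then ARID3A, then ARID3C. On this scale the vector libraries had 5.43 ± 1.28 CPM per kb for ARID3B, 2.31 ± 0.692 for ARID3A and 0.280 ± 0.131 for ARID3C (SD, n = 6). The ranges of ARID3A, 1.02 to 2.91 CPM per kb, and ARID3B, 2.96 to 6.57, do not overlap. In TRPML3 libraries the order was ARID3B with 4.07 ± 2.74, ARID3C with 0.349 ± 0.188 and ARID3A with 0.0525 ± 0.0705 CPM per kb (SD, n = 6). There ARID3A was lower than ARID3C in the 5 libraries other than TRPML3 starved replicate 1. Exon length in other transcript mixtures would move these levels.

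Among the 6 vector libraries the levels of ARID3A and ARID3B were high and low in much the same ones. How many other genes vary this closely with ARID3A there was not examined. The ratio of their CPM stayed between 0.399 and 0.548 in the 6 vector libraries, and vector fed replicate 1 was the lowest vector library for both, and for ARID3C. Pearson's r of log2(CPM + 0.5) was 0.98 (exact permutation p = 0.0153, adjusted p = 0.0611 over 4 relations) and Spearman's rho 0.89 (exact permutation p = 0.0333, adjusted p = 0.133), two-sided, n = 6. Without vector fed replicates 1 and 2, those farthest from the median of ARID3B, r was 0.77. The relation did not pass after adjustment, and its size rests in part on those libraries. The 4 relations adjusted over include those of ARID3A among TRPML3 libraries, which are not read here, and the adjusted p depends on that family. With library size as the only scaling the adjusted exact p was 0.0278.

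Among the 6 TRPML3 libraries ARID3A held 3 to 10 counts in 5, so its relation to ARID3B or to MCOLN3 cannot be read there. The ratio of ARID3A to ARID3B ran from 0.00308 to 0.243 in those libraries. The level of MCOLN3 varied 11.8-fold among them. With ARID3B it had an r of -0.41 and a rho of -0.086 (exact permutation p = 0.489 and 0.919, adjusted p = 0.652 and 0.919 over the 4 relations). Leaving out TRPML3 fed replicates 1 and 2 gave an r of -0.37. From the least to the most MCOLN3, the TRPML3 libraries had 3, 5, 10, 43, 9 and 4 counts of ARID3A. That order is fed 2, fed 1, starved 3, fed 3, starved 1 and starved 2.

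**Figure D4:**
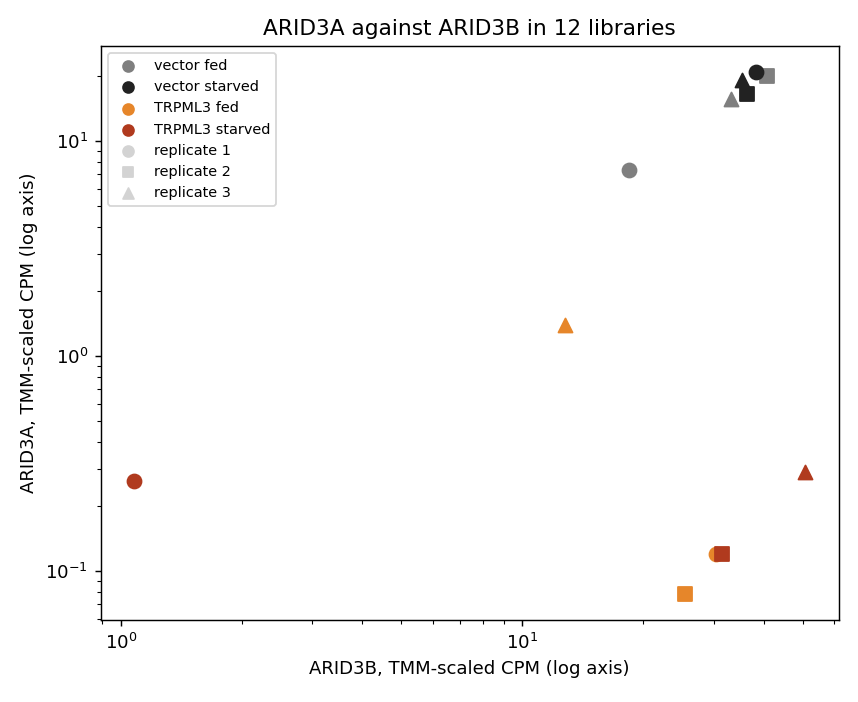
ARID3A against ARID3B in TMM-scaled CPM, both axes log, with 1 point per library, the group as the colour and the replicate number as the marker. The 6 vector points lie along a line at a ratio of 0.399 to 0.548, and the TRPML3 points lie below it, 1 of them at 1.08 CPM of ARID3B.

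The genes most like ARID3A over all 12 libraries were found by Pearson's r of log2(CPM + 0.5) among 10810 other genes with a mean of at least 5 CPM. These values describe the split by plasmid that chose ARID3A and carry no test. The highest r were 0.93 for TMUB2, 0.82 for PI4KA, a kinase that makes phosphatidylinositol 4-phosphate, 0.81 for ZFP14, a zinc finger protein, and 0.79 for CLPP, a mitochondrial protease. TMUB2 had medians of 16.4 CPM in vector and 8.61 CPM in TRPML3 libraries, ZFP14 7.92 and 5.28 CPM, PI4KA 125 and 108 CPM and CLPP 29.2 and 25.5 CPM, against 17.95 and 0.191 CPM for ARID3A. The lowest r were -0.94 for MCOLN3, -0.85 for SLC23A2, a vitamin C transporter, -0.84 for TMEM170A and -0.83 for TPI1P1. SLC23A2 had 0.122 to 0.617 CPM in vector and 0.326 to 44.6 CPM in TRPML3 libraries, so its ranges overlap.

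Other genes with an ARID domain were compared as the wider family, with the Y-linked one left out. All 11 were tested and 0 passed an adjusted p of 0.05 in any of the 7 contrasts. No ARID gene of the 11 had an unadjusted p under 0.05 for average TRPML3. There, 7 were higher and 4 lower with TRPML3, with a median log2 difference of 0.036 against -0.011 over all genes. The lowest was ARID4B, a subunit of a Sin3 histone deacetylase complex, with -0.37 ± 0.34 (SE), and the highest ARID5B with 0.41 ± 0.51 (edgeR adjusted p = 1.00 for both). None had more than 2 of its 6 TRPML3 libraries under all vector libraries. For ARID3A that count was fixed at 6 by the rule that chose it, so the counts are not compared. All 6 lay under in 0.0943% of all genes tested.

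With starvation, 6 of the 11 were higher and 5 lower, and 3 had an unadjusted p under 0.05 in edgeR's test, as 9.45% of all genes did. ARID1B, a subunit of the BAF chromatin remodelling complex, had -0.75 ± 0.18 (adjusted p = 0.349), ARID2, a subunit of the related PBAF complex, -0.43 ± 0.13 (adjusted p = 0.369), and ARID4B 0.78 ± 0.34 (adjusted p = 0.514). The DESeq2 Wald test called 1 of the 11, ARID1B, in this contrast, where it called 1.26% of its genes, and 0 in average TRPML3. KDM5A, a histone H3 lysine demethylase, had the highest value, 0.88 ± 0.69 (adjusted p = 0.764), and ranged from 2.38 to 189 CPM over the 12 libraries. ARID1A, ARID5B and JARID2 also spread widely, with highest over lowest library ratios of 10.7, 20.7 and 9.11, whereas KDM5B stayed within 1.31-fold.

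**Figure D5:**
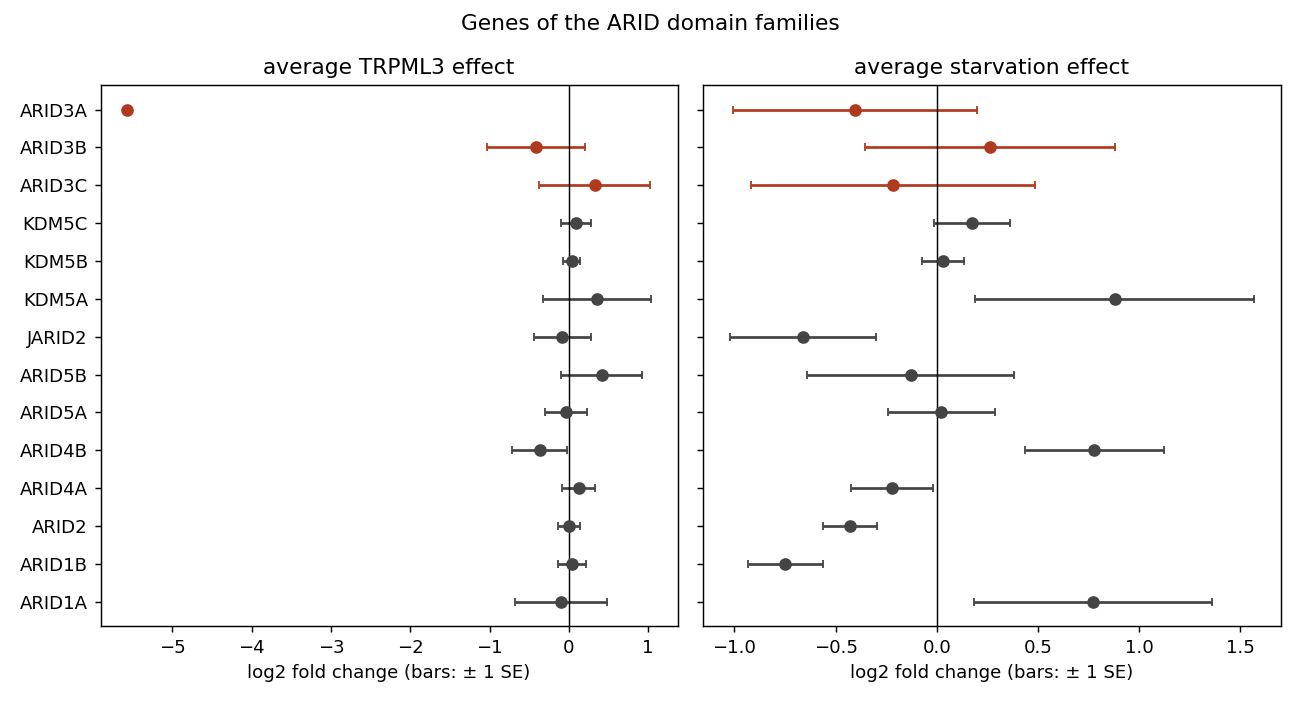
log2 fold change of the 3 ARID3 genes (red) and 11 other ARID genes (grey) averaged over serum states for TRPML3 and over plasmids for starvation, with bars of 1 SE. ARID3A at -5.58 is shown without an error because it was chosen on this contrast, and the 13 other genes lie between -0.42 and 0.41 in that panel.

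Genes tied to ARID3 proteins were examined in further lists. None of their genes was called by edgeR, and the DESeq2 Wald test called 1 of them, the pluripotency factor SOX2 for average starvation, where it called 1.26% of its genes. Of 9 partner genes, including E2F1, RB1 and the ARID3A-binding nuclear body protein SP100, 0 passed in any contrast, and 0 had an unadjusted p under 0.05. SP100 was highest with TRPML3 at 0.55 ± 0.28 (log2, SE, edgeR adjusted p = 1.00) and the demethylase gene KDM4C lowest at -0.59 ± 0.46 (adjusted p = 1.00). With starvation GTF2I, a transcription factor that works with Bright in B cells, was highest at 0.52 ± 0.49 (edgeR adjusted p = 0.807). BTK, the B cell kinase of the same complex, had 0.612 CPM on average over the 12 libraries.

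Of 20 E2F target genes, all tested, 0 passed in any contrast. An unadjusted p under 0.05 was reached by 1 gene with TRPML3 on average, against 2.62% of all genes, and by 3 genes with starvation, against 9.45%. With TRPML3 on average, 11 E2F targets were higher and 9 lower, with a median log2 difference of 0.023 against -0.011 over all genes. CCNE1, which encodes cyclin E1, had 0.88 ± 0.52 (SE) and MCM5, a subunit of the replicative helicase, -0.23 ± 0.17, both with an edgeR adjusted p of 1.00. With starvation the median was 0.076, with MYBL2 at 0.71 ± 0.31 (edgeR adjusted p = 0.501) and CCNE2 at -0.78 ± 0.60 (edgeR adjusted p = 0.760).

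Of 11 LIN28 and let-7 target genes, 10 were tested and 0 passed. In edgeR's test an unadjusted p under 0.05 was reached by 0 with TRPML3 on average and by 2 with starvation on average (2.62% and 9.45% of all genes). For TRPML3 in fed cells it was reached by 1, against 2.21% of all genes. With TRPML3 on average the highest was TRIM71 at 1.60 ± 1.16 and the lowest HMGA2 at -0.41 ± 0.66 (edgeR adjusted p = 1.00 for both). With starvation IGF2BP1, an oncofetal RNA-binding protein, was lowest at -0.61 ± 0.22 (edgeR adjusted p = 0.431). Of 6 pluripotency factors, 4 were tested and 0 passed. For average TRPML3 and average starvation, 0 and 3 had an unadjusted p under 0.05 in edgeR, against 2.62% and 9.45% of all genes. NANOG and LIN28A had no more than 8 and 11 counts in any library. POU5F1, which encodes OCT4, had 1.22 CPM on average and a TRPML3 value of 0.50 ± 0.41 (edgeR adjusted p = 1.00). SOX2 had 0.63 ± 0.17 (edgeR adjusted p = 0.363) and KLF4 -0.99 ± 0.39 (adjusted p = 0.464) with starvation.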

How the data were processed

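The submitters' processing notes name FastQC, fastp, HISAT2, StringTie, DESeq2 and GRCh38, without roles or versions; the annotation release and strand setting are not given in the sources used here. The authors deposited raw counts per gene for 41878 rows and, for 23252 of them, a normalized signal that equals the count divided by 1 factor per library. Libraries were matched to columns by the library names in the labels. Raw counts were fitted with edgeR 4.0.16 in R 4.3.3 (TMM, filterByExpr, robust quasi-likelihood, 1 coefficient per group, 12 libraries, 8 residual degrees of freedom, Benjamini-Hochberg over 18030 genes). The threshold was an adjusted p of 0.05. DESeq2 1.42.0, limma 3.58.1 on the log2 of the authors' normalized signal, other scalings and filters, a replicate block and left-out libraries were alternatives. The fitting script was tested on simulated data.

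The members and lists were chosen with earlier results of these data known. Named genes are the members, MCOLN3, the extremes of each list at a mean of at least 1 CPM, neighbours, the genes most like ARID3A and those with the widest gap (some genes are not reported here); ARID1A, ARID2, JARID2, KDM5B, RN7SL381P, BTK, NANOG, LIN28A and the marker genes whose levels are given were named after their values were seen. Same-numbered vector and TRPML3 libraries deviated together (r of 0.11, 0.15 and 0.33 in fed, 0.13, 0.095 and 0.32 in starved cells). All fed values exceed a limit of 0.1, and in starved cells replicate 2 falls just under it. The starved libraries may thus be paired as well, and the mitochondrial share followed the replicate number in every group. Same-numbered fed and starved libraries of the same plasmid did not deviate together. Their r in replicates 1, 2 and 3 was -0.043, -0.013 and -0.057 with vector, and 0.0075, -0.021 and -0.076 with TRPML3. The main fit has no term for the replicate number, which enters only as the block among the alternatives. All 66 pairs of libraries differed by far more than counting noise. GENCODE 29 held 93.9% of the identifiers.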

Additional observations from a re-analysis of the deposited data

How the results depend on the processing

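In the tests read in the Results, every fit kept an adjusted p of at least 0.632. That lowest value came from edgeR, for ARID3B and average starvation without TRPML3 starved replicate 1. The ARID3A starvation values that rest on the near-floor TRPML3 libraries are given with no test. The choice of ARID3A fixes its direction between plasmids, so that says nothing of stability. The values that changed sign and the widest other shifts are given here, and their cause was not tested. With limma-trend on log2 of the normalized value + 1, ARID3A had -5.54 for TRPML3 in fed cells, a starvation value of -0.25 with TRPML3 and 0.13 for average starvation. ARID3B had -1.61 for TRPML3 in starved cells, -1.02 for average TRPML3, -0.85 in starvation with TRPML3, -0.26 for average starvation and -1.18 for the interaction, and ARID3C -0.55 for TRPML3 in starved cells, -0.099 for average TRPML3, -1.11 for starvation in TRPML3 cells, -0.65 for average starvation and -0.90 for the interaction. With the replicate number as a block ARID3B had -0.056 for starvation in TRPML3 cells and an interaction of -0.42, and ARID3C -0.34 for the interaction, and the block changed no call. The ARID3B interaction was -0.00088 with DESeq2 size factors, -0.046 with library size only and -0.00077 in the DESeq2 Wald test. The permutation tests of relations lie outside that bound. For ARID3A against ARID3B among vector libraries, library size only gave r = 0.98 with an adjusted p of 0.0278 (exact permutation). In the main setting that p was 0.0611, so the call changed with the scaling. The filter of 10 counts in every library removes ARID3A and ARID3C and so gave them no value.

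Leaving out each library, or (chosen after seeing the data) each replicate number in all groups, makes 15 fits. For ARID3A the values ran from -7.12 to -3.94 for TRPML3 in fed cells, -6.61 to -6.09 in starved cells, -6.82 to -5.06 for average TRPML3, 0.0021 to 0.80 for starvation in vector cells, -1.82 to 1.15 for starvation in TRPML3 cells, -0.91 to 0.77 for average starvation and -2.24 to 0.74 for the interaction. For ARID3B they ran from -0.96 to -0.078 for TRPML3 in fed and -1.20 to 0.19 in starved cells, -0.80 to -0.13 for average TRPML3, -0.054 to 0.51 for starvation in vector cells, -0.77 to 1.10 for starvation in TRPML3 cells, -0.21 to 0.55 for average starvation and -1.12 to 1.16 for the interaction. For ARID3C they ran from -0.26 to 0.74 for TRPML3 in fed and 0.0069 to 1.05 in starved cells, 0.093 to 0.62 for average TRPML3, -0.72 to 0.15 for starvation in vector cells, -0.59 to 0.59 for starvation in TRPML3 cells, -0.45 to 0.076 for average starvation and -0.49 to 1.12 for the interaction. ARID3C had 0 to 31 counts per library, which limits its precision.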
